A study of Mus musculus with 6 samples.

Results

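The genes described here are *Srpr* and 9 further genes of the machinery that brings new proteins to the endoplasmic reticulum (ER), in hearts of mice without *Trdn-as* and of WT mice. They were found by their gene symbol, namely *Srpr*, *Srprb*, *Srp9*, *Srp14*, *Srp68*, *Srp72*, *Sec61a1*, *Sec61b*, *Ssr1* and *Sec62*, and all 10 were present among the 21776 genes of the table. *Srpr* was selected because its values were lower in the KO hearts, so its difference is given as a description with no test. The other 9 genes were chosen by function, and 8 of them reached the mean value of 10 that was needed for a test, which *Sec61b* did not. The samples were 3 hearts of the genotype trdn-as KO and 3 WT hearts, with 1 stranded library of total RNA for each heart. *Trdn-as*, a non-coding RNA, overlaps *Trdn*, which encodes triadin, on the opposite strand. In the KO mice a polyA cassette had been placed in the first exon of *Trdn-as* in embryonic stem cells by Cas9, chimeras were backcrossed to C57BL/6, and the mice were homozygous. The insertion is therefore carried by every cell of the animal. The study lists both KO and WT mice under C57Bl6. The number of stem cell clones and of backcross generations, and the age and sex of the 6 mice were not given in the sources used here. The labels name the tissue as heart, with no chamber or cell type.

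Proteins that enter the ER carry a signal sequence, which the signal recognition particle (SRP) binds as it emerges from the ribosome. The particle consists of an RNA and the proteins encoded by *Srp9*, *Srp14*, *Srp19*, *Srp54a*, *Srp68* and *Srp72*. It docks at the SRP receptor on the ER membrane, a pair of GTPases made of the peripheral alpha subunit encoded by *Srpr* and the membrane-anchored beta subunit encoded by *Srprb*. The ribosome is then handed to the Sec61 channel, whose pore is the product of *Sec61a1* and which holds the small beta subunit from *Sec61b*. *Ssr1* encodes a subunit of the translocon-associated protein complex beside the channel, and *Sec62* a membrane protein that serves substrates imported after translation. In cardiomyocytes the sarcoplasmic reticulum is a specialised form of the ER, and many of its membrane and luminal proteins enter by the same route.

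*Srpr* (ENSMUSG00000032042) lies on the plus strand of chromosome 9 at chr9:35211155-35217014 (GRCm38). Its start faces that of *Foxred1*, which encodes a factor for assembly of mitochondrial complex I and is read in the opposite direction. In RefSeq (GRCm38.p6) both starts are 148 bases apart, so that the promoter windows of the genes, 250 bases before to 50 after the start, share 247 of their 300 bases. Promoter windows were found for 8 of the 10 genes. *Srp68* and *Sec61a1* had none. Those of 3 genes are printed 5′ to 3′ on the strand of the gene, for *Srpr* as the gene selected, for *Srprb* as the other receptor subunit and for *Ssr1* as the other gene with all KO values below all WT values. Capitals mark every match, on either strand, to the 8 short motifs searched, which are spelled out after the sequences.
Srpr promoter, plus strand, chr9:35210953-35211252: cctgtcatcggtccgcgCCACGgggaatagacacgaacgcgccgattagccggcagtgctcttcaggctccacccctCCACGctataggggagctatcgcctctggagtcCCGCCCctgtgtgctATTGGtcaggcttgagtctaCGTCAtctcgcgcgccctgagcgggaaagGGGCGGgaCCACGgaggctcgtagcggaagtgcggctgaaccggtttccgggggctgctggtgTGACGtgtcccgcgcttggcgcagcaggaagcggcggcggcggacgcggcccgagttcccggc
Srprb promoter, minus strand, chr9:103202016-103202315: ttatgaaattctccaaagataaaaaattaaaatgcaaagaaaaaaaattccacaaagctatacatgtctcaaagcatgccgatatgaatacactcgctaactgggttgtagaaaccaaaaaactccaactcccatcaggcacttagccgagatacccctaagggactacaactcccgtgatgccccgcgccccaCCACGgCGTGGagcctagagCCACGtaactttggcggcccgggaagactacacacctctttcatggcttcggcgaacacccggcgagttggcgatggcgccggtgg
Ssr1 promoter, minus strand, chr13:37994159-37994458: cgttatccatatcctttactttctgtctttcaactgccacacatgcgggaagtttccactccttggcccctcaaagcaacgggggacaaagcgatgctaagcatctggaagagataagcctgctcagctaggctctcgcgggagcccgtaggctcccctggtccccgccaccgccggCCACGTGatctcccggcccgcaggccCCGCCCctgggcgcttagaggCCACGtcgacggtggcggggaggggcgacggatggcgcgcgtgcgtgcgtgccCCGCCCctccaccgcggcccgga
The *Srpr* window had 68% G and C, against a median of 52.7% over 32851 RefSeq promoter windows, and the *Srprb* window had 50%. The *Srpr* window held 1 CCAAT box, in reverse, 125 bases before the start, and that match also lies in the *Foxred1* window. CCAAT was in 37.4% of all windows, and of the other 7 genes *Srp9* alone held it, 2 times. CCACG, which shares its last 4 letters with the start of the E-box CACGTG, stood 3 times in *Srpr*, 3 times in *Srprb*, 2 times in *Ssr1* and 1 time in *Srp9*, and was in 32.8% of all windows. The GC box GGGCGG stood 2 times each in *Srpr*, *Ssr1* and *Srp9* and 1 time each in *Srp14* and *Sec61b*, and was in 35.7% of windows. TGACG, which is contained in the longer cyclic AMP element, stood 2 times each in *Srpr*, *Srp14* and *Srp72* and 1 time in *Sec62*, and was in 20.8% of windows. The E-box CACGTG was in 7.15% of windows and stood once in *Ssr1* and once in *Sec62*. The ETS core CCGGAAG (8.86% of windows) had a match in *Srp72* alone among the 8 genes, and the cyclic AMP element TGACGTCA (1.79%) and the YY1 core ATGGCGG (4.05%) had none. The arrangement known as ER stress element, CCAAT followed 9 bases later by CCACG, was in 0.119% of windows and in 0 of the 8 genes. These matches are descriptions of letters in a window.

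The deposited normalised read counts of the 6 libraries summed to 3.13 to 3.25 M, and the gaps that rounding left among the values put the counted reads at an estimated 2.59 to 3.62 M per library. A count of 3 reads corresponded to a value of 2.61 to 3.77. The targeted gene, listed as AC157017.2 (ENSMUSG00000112707), had values of 1, 0 and 1 in KO and 690, 773 and 688 in WT. The test covered 13753 genes, and an adjusted p under 0.05 in limma (Benjamini-Hochberg) was reached by 4, or 0.0291%. Cardiomyocyte markers were abundant in every heart, with 73738 to 94044 for *Ttn*. Of the 8 markers on the cardiomyocyte list all had lower means in KO, as had 49.4% of all genes tested. Their median log2 fold change was -0.16, with 5 at an unadjusted p under 0.05, a level reached by 5.74% of all genes tested. The sums of these markers were 93658 to 98110 in KO and 97272 to 119486 in WT. All KO values lay below all WT values in 1 of the 8, *Ryr2*, and WT replicate 1 was the highest heart in each marker. All 7 endothelial markers were higher, with a median of 0.03 and *Vwf* at an unadjusted p under 0.05 (log2 fold change 0.34, adjusted p = 0.551). Of the 8 macrophage markers 5 had a positive log2 fold change, with a median of 0.09 and *C1qb* (0.39) and *Cd163* (0.21) at an unadjusted p under 0.05. The fibroblast, smooth muscle, atrial and red blood cell lists had 0 genes at that level. The adipocyte markers *Adipoq*, *Plin1* and *Retn* were too low for a test, as were *Jchain*, *Mzb1*, *Tnfrsf17* and *Igkc* of plasma cells. In whole hearts fewer cells of a type and less RNA per cell cannot be told apart.

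*Srpr* was lower in all 3 KO hearts. The alpha subunit of the SRP receptor was counted at 275, 292 and 346 in KO replicates 1 to 3, whereas WT replicates 1 to 3 had 455, 433 and 383. The means were 304 ± 37.1 in KO and 424 ± 36.9 in WT (SD, n = 3), which is a ratio of 0.718 and a change of -28.2%. The highest KO heart, KO replicate 3, lay below the lowest WT heart, WT replicate 3, by less than either group's range. On the log2(value + 1) scale the difference was -0.48, and the KO hearts lay -0.62, -0.53 and -0.29 from the WT mean. Leaving out each library in turn gave differences of -0.57 to -0.41. Of all 75-base stretches of the *Srpr* transcripts, 10% also occur in the processed pseudogenes *Gm6733* and *Gm7593*, and reads from these were discarded upstream as multi-mapping. *Gm6733* itself had values of 12, 8 and 10 in KO and 9, 18 and 11 in WT.

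The KO and WT hearts were not separated in the beta subunit of the receptor. *Srprb* (chr9:103188032-103202137, minus strand) had 66, 72 and 61 in KO and 58, 62 and 64 in WT, so the groups overlapped. Its log2 fold change was 0.11 (SE 0.14, 95% interval -0.19 to 0.41, unadjusted p = 0.455, adjusted p = 0.956 in limma). Within each heart the ratio of *Srpr* to *Srprb* was 4.17, 4.06 and 5.67 in KO and 7.84, 6.98 and 5.98 in WT. All 3 KO ratios were under the WT ratios, which follows in part from the choice of *Srpr* and was not tested. *Srprb* shares 888 exonic bases on its strand with the readthrough gene *Gm20425*, and reads falling there would not have been counted for *Srprb*.

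**Figure D1:**
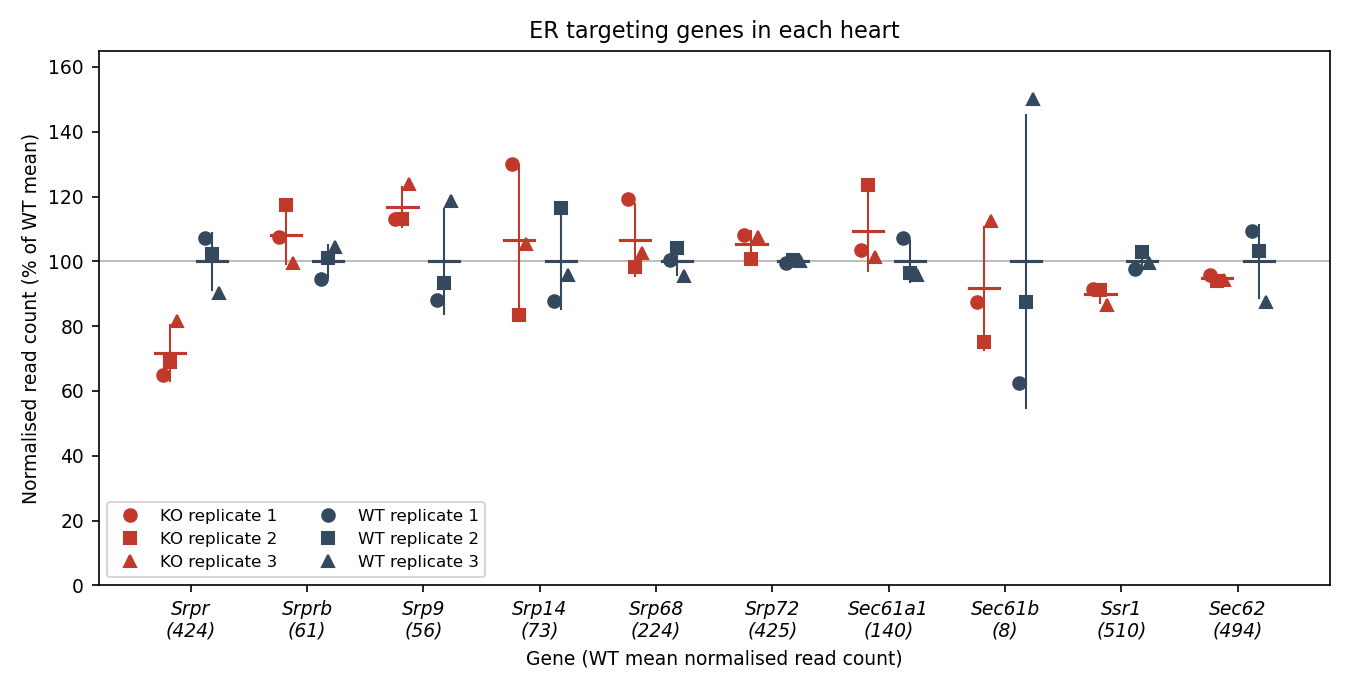
Normalised read counts of the 10 genes in each heart, as a percentage of the WT mean of the gene (vertical axis), with KO hearts in red and WT hearts in blue, group means as horizontal bars and SD as vertical lines. *Srpr*, selected for its lower values in KO, lies at 71.8% of WT on average with no overlap. *Ssr1* lies at 89.7%, and the groups overlap in the other genes except *Srp72*.

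The transcripts of the particle's proteins had slightly higher means in KO, with the exception of *Srp19*, and 0 passed a test. *Srp72*, which with *Srp68* forms the largest heterodimer of the particle, had 459, 428 and 457 in KO and 423, 427 and 426 in WT. Every KO heart was above every WT heart, but KO replicate 2 exceeded the highest WT heart by a single unit. The log2 fold change was 0.07 (SE 0.07, 95% interval -0.06 to 0.21, unadjusted p = 0.273, adjusted p = 0.922 in limma). Its partner *Srp68* had 267, 220 and 230 in KO and 225, 233 and 214 in WT, with a log2 fold change of 0.09 (SE 0.09, adjusted p = 0.937 in limma). Only KO replicate 1 stood above the WT hearts.

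*Srp9* and *Srp14* encode the pair that binds the Alu domain of the SRP RNA and slows elongation. *Srp9* had 63, 63 and 69 in KO and 49, 52 and 66 in WT, with a log2 fold change of 0.23 (SE 0.16, adjusted p = 0.894 in limma). WT replicate 3 reached the level of the KO hearts. *Srp14* had 95, 61 and 77 in KO and 64, 85 and 70 in WT, with a log2 fold change of 0.08 (SE 0.16, adjusted p = 0.977 in limma), and both the highest and the lowest heart were KO. The sign of *Srp14* depended on single libraries, and the fits without 1 library ranged from -0.08 to 0.24. The ratio of *Srp9* to *Srp14* averaged 0.864 ± 0.187 in KO hearts and 0.773 ± 0.166 in WT hearts (SD, n = 3, exact two-sided permutation test p = 0.6), and that of *Srp68* to *Srp72* was 0.533 ± 0.0425 and 0.527 ± 0.0221 (p = 0.8, same exact test). With 3 hearts against 3 this test cannot give a p below 0.1.

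On the wider list of the SRP and its receptor, 8 genes besides *Srpr* were tested. Of these, 7 were higher in KO and 1 lower, with a median log2 fold change of 0.08 and a range of -0.03 to 0.23. Over all genes tested 49.4% were lower and the median was 0.00. Of the 8 genes 0 had an unadjusted p under 0.05 and 0 an adjusted p under 0.05, where 5.74% of all tested genes had the former. The gene lower in KO was *Srp19*, which helps to assemble the particle, with 154, 132 and 153 in KO and 162, 136 and 150 in WT. *Srp54a*, one of the genes of the subunit that binds the signal sequence, had 29, 26 and 27 in KO and 28, 19 and 23 in WT, and *Srp54b* had 47, 46 and 53 in KO and 40, 50 and 50 in WT. The groups overlapped in all 3. The SRP RNA genes *Rn7s2* and *Rn7s6* did not reach the mean value for a test. Multi-mapping reads were discarded upstream, so these values need not give the level of the SRP RNA.

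At the membrane, the channel gene *Sec61a1* had 145, 173 and 142 in KO and 150, 135 and 134 in WT. KO replicate 2 was the highest, and the groups overlapped. The log2 fold change was 0.13 (SE 0.11, 95% interval -0.09 to 0.35, adjusted p = 0.915 in limma). *Sec61b* was close to the floor, with 7, 6 and 9 in KO and 5, 7 and 12 in WT, and no difference could be detected at this depth. The transcript of *Sec61b* is short, and 10.1% of its 75-base stretches are shared with other genes. *Sec62* had 473, 464 and 466 in KO and 540, 510 and 432 in WT, with a log2 fold change of -0.07 (SE 0.08, adjusted p = 0.944 in limma), and the KO hearts lay within the WT range.

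*Ssr1* was the other gene whose KO hearts were all below the WT hearts. It had 467, 465 and 442 in KO and 498, 525 and 508 in WT, with means of 458 ± 13.9 and 510 ± 13.7 (SD, n = 3). The log2 fold change was -0.16 (SE 0.06, 95% interval -0.29 to -0.02, unadjusted p = 0.0249, adjusted p = 0.851 in limma), so it did not pass. It was 1 gene of the 8 at an unadjusted p under 0.05, a level reached by 5.74% of all genes tested, and the count was 0 without KO replicate 3 or WT replicate 2 and 3 without WT replicate 3. All KO values lay below all WT values in 4.44% of the tested genes and above them in 4.64%. Among the 8 genes each occurred once, for *Ssr1* and for *Srp72*. The *Ssr1* difference and the median of the cardiomyocyte markers were both -0.16, and the part of cell composition in it was not tested.

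Among the 19 genes of the Sec61 channel and its partners, 17 could be tested. KO was higher in 6 and lower in 11, with a median of -0.02 and a range of -0.25 to 0.56, where 49.4% of all genes tested were lower. *Ssr1* was the 1 gene at an unadjusted p under 0.05, which is near the share of 5.74% over all genes. The count was 0 without KO replicate 3 or WT replicate 2, 2 without KO replicate 2 or WT replicate 1, and 4 without WT replicate 3. Of the other subunits of its complex, *Ssr3* had 802, 798 and 814 in KO and 804, 787 and 766 in WT (log2 fold change 0.03, 95% interval -0.08 to 0.15). *Ssr2* had a log2 fold change of -0.12 (95% interval -0.39 to 0.16) and *Ssr4* of 0.13 (-0.19 to 0.45). The groups overlapped in these 3 genes, and differences between the subunits were not tested. The ends of the range were *Tmem147*, part of a translocon complex for multipass proteins, at -0.25 (72.0 in KO, 85.7 in WT on average), and *Sec61g*, the small gamma subunit of the channel, at 0.56 (22.0 in KO, 15.0 in WT). The latter is among the lowest genes of the list.

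Levels of different genes were compared per kilobase of merged exons, as means over the 6 hearts, leaving out the bases *Srprb* shares, a choice made after the values were seen. *Srpr* was the highest of the 10 with 118 ± 23.7 (SD, n = 6), followed by *Sec62* with 111 ± 8.80, *Srp68* with 84.6 ± 6.83, *Srp72* with 76.4 ± 2.91 and *Srp14* with 63.0 ± 10.9. The range of *Srpr* over the hearts overlapped those of *Sec62* and *Srp68*, and the ranges of *Srp68*, *Srp72* and *Srp14* overlapped each other. Lower levels per kilobase were found for *Ssr1* with 46.4 ± 2.99, *Sec61a1* with 21.8 ± 2.13, *Srprb* with 18.8 ± 1.42, *Srp9* with 10.9 ± 1.44 and *Sec61b* with 6.03 ± 1.97. In this group *Sec61a1* overlapped with *Srprb*, and *Srp9* with *Sec61b*. With the shared bases included, *Srprb* stood at 14.9 ± 1.13 and no longer overlapped with *Sec61a1*. With the length of the longest transcript *Srpr* remained first at 122, with *Sec62* at 121, while *Srp72* (120) and *Srp14* (94.4) moved above *Srp68* (91.6). By that length *Sec61a1* stood at 46.2 and overlapped with *Ssr1* (51.9), and *Sec61b* stood at 10.6. In KO hearts *Srpr* stood at 98.5 ± 12 and *Sec62* at 108 ± 1.09 per kilobase, and in WT hearts at 137 ± 11.9 and 114 ± 12.8 (SD, n = 3).

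After the channel, signal peptidase removes the signal sequence and oligosaccharyltransferase adds the sugar chain. All 6 tested genes of signal peptide removal had a negative log2 fold change (median -0.06, range -0.24 to -0.02), as had 49.4% of all genes tested. For *Sec11c* (-0.02) the mean value was 69 in both groups. An unadjusted p under 0.05 was found for 0 of the 6. Of the 12 oligosaccharyltransferase genes 9 were lower (median -0.07), and *Stt3a*, a catalytic subunit that acts during translocation, was the 1 gene at an unadjusted p under 0.05, a level that 5.74% of all genes tested reached. *Stt3a* had 399, 416 and 547 in KO and 597, 508 and 553 in WT, with a log2 fold change of -0.29 (SE 0.09, unadjusted p = 0.00556, adjusted p = 0.762 in limma). KO replicates 1 and 2 were the lowest hearts, and KO replicate 3 lay within the WT range.

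Routes that do not need the receptor showed no common direction, beside 49.4% lower in KO over all genes tested. In the list of SRP-independent targeting 5 genes were higher and 3 lower (median 0.03), with *Asna1*, the ATPase that delivers tail-anchored proteins, at 98, 114 and 96 in KO and 86, 85 and 86 in WT (log2 fold change 0.25, SE 0.12, unadjusted p = 0.048, adjusted p = 0.851 in limma). No other gene of the 8 had an unadjusted p under 0.05, which 5.74% of all genes tested had. All KO values of *Asna1* lay above all WT values, as in 4.64% of all genes tested. Its unadjusted p was over 0.05 with the replicate block, with cyclic loess and with at least 10 in every sample. The same held without KO replicate 2 or any single WT heart. The ER membrane protein complex, an insertase for membrane proteins, had 4 genes higher and 6 lower of 10, with a range of -0.11 to 0.07, and 0 at an unadjusted p under 0.05.

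In the ER lumen 14 of 17 chaperone genes were lower in KO, with a median of -0.08, against 49.4% of all genes tested. An unadjusted p under 0.05 was found for 3, where 5.74% of all genes had one, and 0 passed an adjusted p. *Hspa5*, the main ER chaperone BiP, had 1218, 1248 and 1166 in KO and 1480, 1282 and 1312 in WT (log2 fold change -0.16, SE 0.06, unadjusted p = 0.015, adjusted p = 0.807 in limma). *Hsp90b1*, the ER form of the heat shock protein family that folds receptors, had 1326, 1229 and 1235 in KO and 1490, 1358 and 1348 in WT (log2 fold change -0.15, SE 0.06, unadjusted p = 0.0213, adjusted p = 0.841). *Sdf2l1*, which works with BiP, had 21, 19 and 16 in KO and 28, 28 and 44 in WT (log2 fold change -0.78, SE 0.24, unadjusted p = 0.00445, adjusted p = 0.762). The groups did not overlap in these 3 genes. Over the whole list, all KO values lay below all WT values in 4 genes, *Dnajb9* being the other. All KO values lay above all WT values in 1 gene, *Creld2*, with 46, 48 and 52 in KO and 39, 40 and 41 in WT. Over all genes tested these shares were 4.44% below and 4.64% above. The count was 1 without KO replicate 3 or WT replicate 1 and 5 without WT replicate 2 or WT replicate 3. The summed values of the list were 8200 to 8646 in KO and 8661 to 9503 in WT, while the cardiomyocyte markers had a median of -0.16 in the same direction, and their part in the chaperone values was not tested.

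Of 16 genes of the unfolded protein response, which raises ER capacity when unfolded proteins build up, 6 were higher and 10 lower in KO (median -0.03), beside 49.4% lower over all genes tested. An unadjusted p under 0.05 was found for 1 of them, near the share of 5.74% over all genes. It was *Chac1*, which degrades glutathione, with 17, 12 and 2 in KO and 20, 19 and 17 in WT (log2 fold change -1.14, SE 0.47, unadjusted p = 0.0241, adjusted p = 0.851 in limma). The groups overlapped, KO replicate 3 was by far the lowest heart, and the count for this list was 0 without that heart, WT replicate 1 or WT replicate 2, and 2 without WT replicate 3. COPII export genes, which carry finished proteins out of the ER, had 4 higher and 9 lower of 13 (median -0.02) and 0 at an unadjusted p under 0.05, or 1 without WT replicate 2.

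Many proteins of the sarcoplasmic reticulum are cargo of the route, although tail-anchored ones such as the products of *Pln* and *Jph2* can be inserted without the receptor. Of 12 genes on this list, 11 were lower in KO (median -0.15), 8 of them at an unadjusted p under 0.05. Over all genes tested 49.4% were lower, and 5.74% were at that p in either direction. *Ryr2*, the calcium release channel, had 9276, 9785 and 9861 in KO and 11387, 10676 and 9991 in WT (log2 fold change -0.15, adjusted p = 0.841 in limma). *Nppb*, a natriuretic peptide secreted by the heart, had 190, 163 and 146 in KO and 245, 198 and 185 in WT (log2 fold change -0.33, SE 0.11, adjusted p = 0.772), with KO replicate 1 within the WT range. *Jph2*, which holds the junction to the cell membrane, had 788, 772 and 679 in KO and 874, 845 and 791 in WT (log2 fold change -0.17, adjusted p = 0.841). The exception was *Trdn* itself, with 2489, 2381 and 2551 in KO and 1541, 1541 and 1516 in WT (log2 fold change 0.69, SE 0.05, adjusted p = 2.35e-07), the 1 gene of the list past an adjusted p. *Ryr2* and *Pln* are also on the list of cardiomyocyte markers, and that list had a median of -0.16. The count of 9 genes at an unadjusted p under 0.05 fell to 2 without WT replicate 1, to 4 without WT replicate 2 and to 1 without the mean-variance trend.

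**Figure D2:**
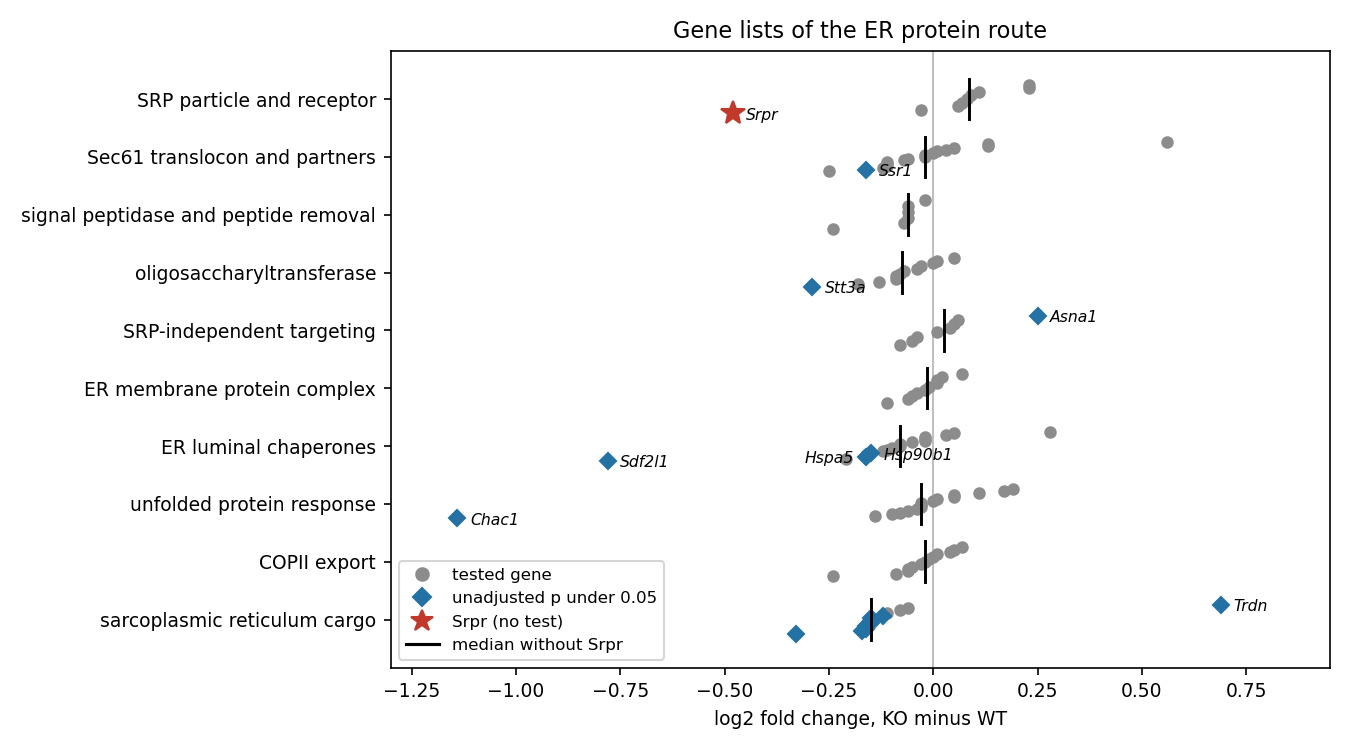
Log2 fold change, KO minus WT, of each tested gene in 10 lists of the ER protein route (horizontal axis), with blue diamonds for an unadjusted p under 0.05, a red star for *Srpr* and a black line at the median of each list without *Srpr*. *Srpr*, which was selected for its lower values in KO, is at -0.48. The other 8 genes of the SRP and its receptor, chosen by function, range from -0.03 to 0.23.

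The genes beside *Srpr* on chromosome 9 were read next, by a rule of position only, within 100 kb on either side. Of 8 such genes 7 were tested, and 6 of these were lower in KO, against 49.4% of all genes tested. *Foxred1*, on the other side of the shared promoter, had 257, 236 and 337 in KO and 360, 332 and 347 in WT, with a log2 fold change of -0.34 (SE 0.10, 95% interval -0.55 to -0.13, unadjusted p = 0.00316, adjusted p = 0.725 in limma). KO replicates 1 and 2 were the lowest hearts, whereas KO replicate 3 lay within the WT range. The ratio of *Srpr* to *Foxred1* was 1.07, 1.24 and 1.03 in KO and 1.26, 1.3 and 1.1 in WT.

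Downstream of *Srpr*, *Fam118b* had 59, 61 and 84 in KO and 91, 85 and 92 in WT (log2 fold change -0.41, SE 0.15, unadjusted p = 0.012, adjusted p = 0.807 in limma). *Rpusd4*, a pseudouridine synthase of mitochondria, had 57, 57 and 81 in KO and 78, 94 and 78 in WT (log2 fold change -0.37, SE 0.16, unadjusted p = 0.0286, adjusted p = 0.851). Again KO replicates 1 and 2 were lowest in each of these genes. The ends of *Srpr* and *Fam118b* overlap by 50 exonic bases on opposite strands, which strand-aware counting keeps apart.

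Upstream, *Tirap*, an adaptor of Toll-like receptors, had 84, 102 and 148 in KO and 130, 119 and 139 in WT (log2 fold change -0.25, adjusted p = 0.879 in limma). *St3gal4*, a sialyltransferase, had 128, 130 and 197 in KO and 190, 159 and 168 in WT (log2 fold change -0.21, adjusted p = 0.892), and *4930581F22Rik* had 19, 27 and 34 in KO and 34, 35 and 29 in WT (log2 fold change -0.32, adjusted p = 0.905). In *Tirap* and *St3gal4* KO replicate 3 was the highest of all 6 hearts. *Dcps*, the scavenger decapping enzyme, was the exception with 28, 50 and 52 in KO and 34, 40 and 47 in WT (log2 fold change 0.06). Of the 7 genes 3 were at an unadjusted p under 0.05, against 5.74% of all tested genes, and 0 passed an adjusted p. This count was 1 without KO replicate 1 or KO replicate 2 and 5 without KO replicate 3.

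**Figure D3:**
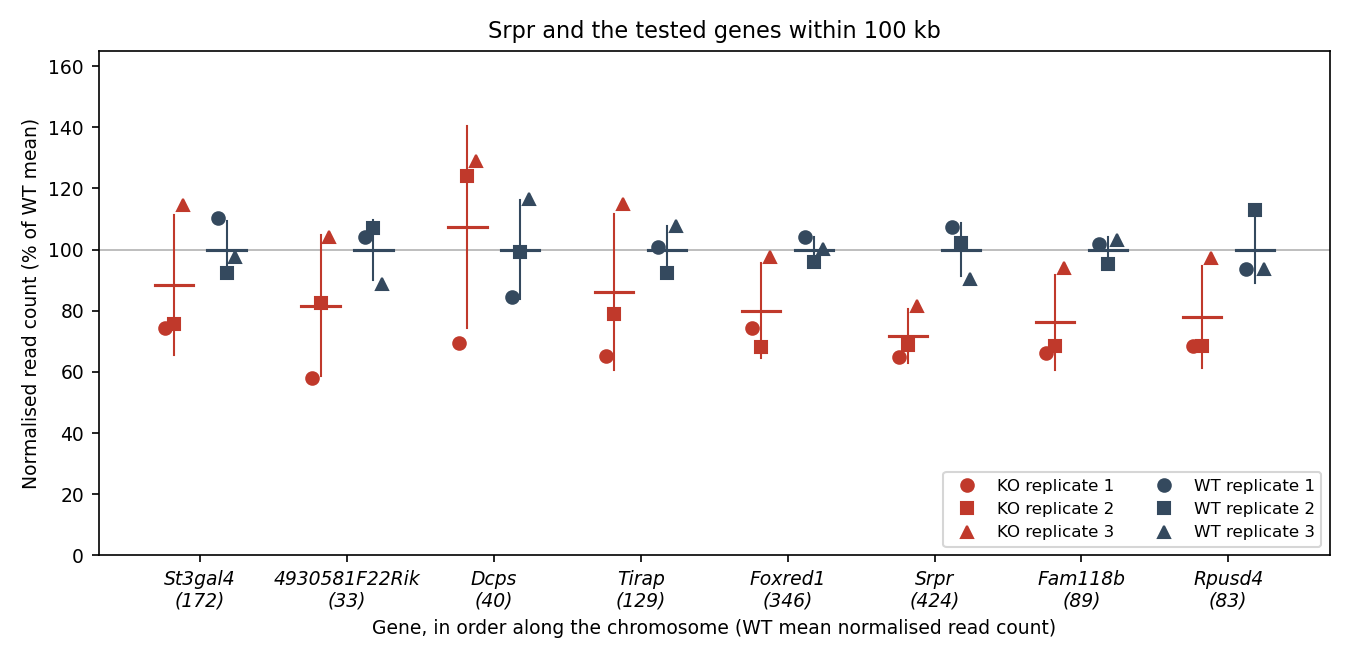
Normalised read counts of *Srpr* and the 7 tested genes within 100 kb in each heart, as a percentage of the WT mean of each gene, in chromosome order, with means as bars and SD as lines. KO replicates 1 and 2 are the lowest hearts in every gene shown except *Dcps*, and KO replicate 3 lies below all WT hearts for *Srpr* and *Fam118b*.

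After these values had been seen, the genes farther out were looked at, and bounds were set by eye at *Ets1* (log2 fold change 0.00) and *Zfp202* (-0.06). Single genes inside these bounds, such as *Dcps* (0.06) and *Fez1* (-0.08), had differences as small. Between them lie 32 tested genes besides *Srpr*, from *Kirrel3os* to *Olfr920*, over 3.84 Mb at chr9:34918233-38760117. Since the bounds were chosen on the values, what follows is a description with no test. Of the 32 genes 31 were lower in KO, all except *Dcps*, and the median log2 fold change was -0.31. The 20 tested genes before the stretch had a median of -0.05 with 11 lower, and the 20 after it a median of -0.07 with 12 lower.

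The low values were found in 2 of the 3 KO hearts. The median of the 32 genes lay -0.50 from the WT mean in KO replicate 1, -0.42 in KO replicate 2 and 0.05 in KO replicate 3, and 0.02, -0.02 and 0.03 in WT replicates 1 to 3. KO replicates 1 and 2 were both below the other 4 hearts in 24 of the 32 genes, or 75.0%, against 4.43% of the tested genes outside the stretch. KO replicate 3 lay within the WT range in 17 of the 32, or 53.1%, against 51.7% outside. Among the 13 genes with a mean of at least 100, both hearts were lowest in all 13. The median was -0.50 without KO replicate 3, -0.23 without KO replicate 1 and -0.24 without KO replicate 2.

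*Srpr* shared this pattern in part. Relative to the median of the other genes of the stretch it was -0.12 in KO replicate 1, -0.11 in KO replicate 2 and -0.33 in KO replicate 3, and 0.09, 0.05 and -0.17 in WT replicates 1 to 3. By this measure the groups overlapped, since WT replicate 3 lay below KO replicates 1 and 2. In KO replicate 3, where the stretch was at the WT level, *Srpr* lay -0.29 from the WT mean, with WT replicate 3 at -0.14. *Srpr* had been selected for its lower KO values, unlike the genes near it. *Stt3a* at chr9:36729344 and *Ei24*, an ER protein with 261, 309 and 383 in KO and 419, 375 and 369 in WT, belong to the stretch, while *Srprb*, on the same chromosome, does not. How much of the lower *Srpr* values belongs to the stretch was not tested. Both groups are listed under C57Bl6, but the number of backcross generations was not given. A difference in *Srpr* tied to *Trdn-as* and one tied to other genotype differences between these mice cannot be told apart here.

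**Figure D4:**
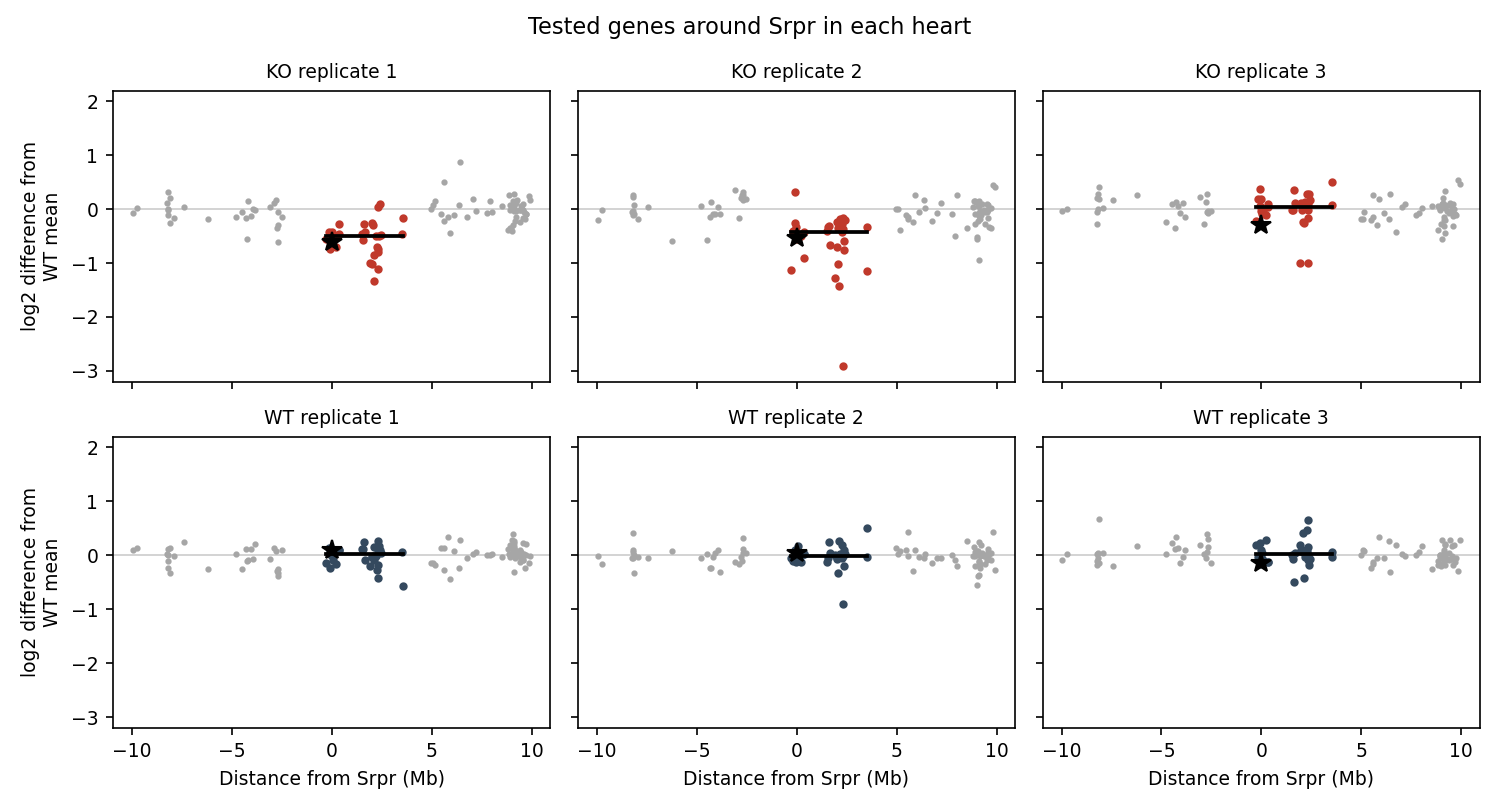
Difference from the WT mean in log2(value + 1) of the 114 tested genes within 10 Mb of *Srpr*, by distance from *Srpr*, in each of the 6 hearts, with the genes of the stretch coloured, their median without *Srpr* as a black line and *Srpr* as a star. The coloured genes are centred at -0.50 and -0.42 in KO replicates 1 and 2 and between -0.02 and 0.05 in the other 4 hearts.

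Windows of 21 neighbouring tested genes were then drawn along every chromosome, 13347 in all. Their size was also chosen after the values had been seen. The window centred on *Srpr* had a median log2 fold change of -0.30, and the lowest window, which lay wholly within the stretch, had -0.37. The 13294 windows without a gene of the stretch had medians from -0.16, on chromosome 7, to 0.20, on chromosome 3. Overlapping windows share genes, so these numbers are no independent observations. The stretch was chosen on its low values and holds *Srpr*, so its contrast with the other windows is a description with no test.

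**Figure D5:**
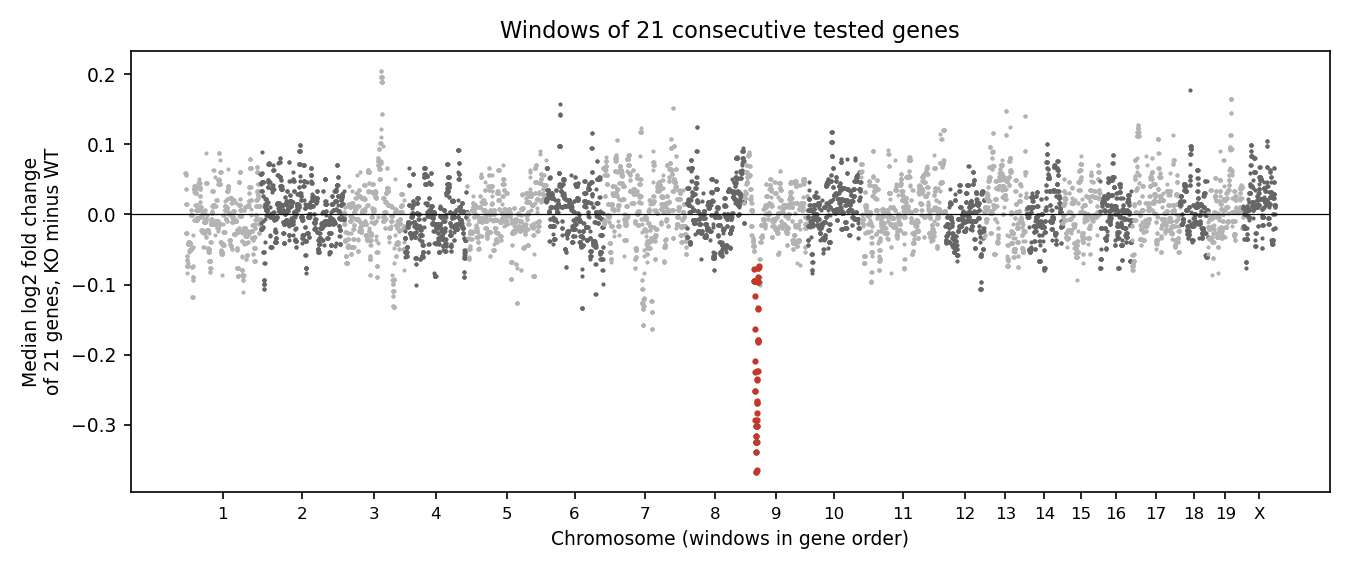
Median log2 fold change, KO minus WT, of each window of 21 consecutive tested genes (vertical axis), in gene order along the chromosomes (horizontal axis), with windows that hold genes of the stretch around *Srpr* in red. The stretch and the window size were chosen on these values. The red windows reach -0.37, and the others stay between -0.16 and 0.20.

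The genes whose values followed *Srpr* most closely over the 6 hearts were read among 7062 other genes with a mean of at least 100, by Pearson's r of log2(value + 1). Among the highest were *Ergic1* (0.973), *Doc2g* (0.963), *Naa60* (0.962) and *Mhrt* (0.958), and none of these 4 lies on chromosome 9. Their changes were smaller than that of *Srpr*, with log2 fold changes of -0.20, -0.20, -0.19 and -0.16. *Ergic1*, which encodes a protein cycling between the ER and the Golgi, had 141, 149 and 153 in KO and 179, 169 and 160 in WT. From the stretch, *Ei24* had an r of 0.90 at rank 39, *Foxred1* 0.88 at rank 64 and *Stt3a* 0.87 at rank 77. *St3gal4* (0.73, rank 430) and *Tirap* (0.68, rank 618), also of the stretch, followed *Srpr* less closely. Of the other ER targeting genes with enough reads, *Ssr1* had 0.70, *Sec62* 0.55, *Sec61a1* -0.48, *Srp68* -0.48 and *Srp72* -0.63. After the mean of each group had been removed these were -0.65, 0.56, -0.02, -0.21 and 0.13, so the sign turned for *Ssr1* and *Srp72*. In the stretch *Ei24* stayed at 0.90, *St3gal4* was at 0.83, *Stt3a* at 0.78, *Foxred1* at 0.72 and *Tirap* at 0.67. The corresponding values were 0.89 for *Ergic1*, 0.91 for *Doc2g*, 0.88 for *Naa60* and 0.84 for *Mhrt*. These are descriptions over 6 points that share their libraries and the KO and WT split.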

How the data were processed

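Total RNA of 6 mouse hearts, 3 *Trdn-as* KO and 3 WT, was sequenced with strand information (75 bp, single-end). Per the study's methods and the submitters' processing notes, the authors trimmed reads (Trimmomatic 0.39), aligned them to GRCm38 (mm10) with STAR 2.6.1d, removed duplicates (Picard 2.21.1), multi-mapping, ribosomal and mitochondrial reads, and counted exonic reads on the correct strand outside gene overlaps (featureCounts 1.6.5). The authors divided the counts by the DESeq2 1.18.1 size factor of each library, and the deposited score per gene and heart is this quotient, rounded to a whole number. Raw counts were not analysed here, so limma took the place of the count test planned for raw counts.

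Values were transformed to log2(value + 1), and the 13753 genes with a mean of at least 10 entered a KO against WT fit in limma 3.58.1 under R 4.3.3 (lmFit, eBayes with a mean-variance trend, no covariate, two-sided, Benjamini-Hochberg, threshold 0.05). The p-values measure only the spread between these 6 samples. Floors cover counting error only. Exon lengths and shared 75-base stretches came from GENCODE M21, promoters from RefSeq. The genes and gene lists were chosen with earlier results of these data known. Genes named were the 10 members, the genes of each list at an unadjusted p under 0.05 (at most 4 of smallest p), genes within 100 kb of *Srpr* and the 5 genes of highest r, of which 1 is not reported here. *Srp19*, *Srp54a*, *Srp54b*, *Ssr2*, *Ssr3*, *Ssr4*, *Tmem147*, *Sec61g*, *Ei24* and the genes bounding the stretch were named after their values were seen. Alternatives were other scalings, filters, a pseudocount of 0.1, limma-voom, no trend, a replicate block and leaving out each library.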

Additional observations from a re-analysis of the deposited data

How the results depend on the processing

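The *Srpr* difference of -0.48 was -0.48 to -0.46 under every other scaling, filter, pseudocount, limma-voom and no trend, and -0.57 to -0.41 when each library was left out in turn. None of the 8 other tested genes passed an adjusted p in any of these settings. The count of these genes at an unadjusted p under 0.05 was 1, was 0 without the mean-variance trend, and ran from 0 to 3 when libraries were left out. The count of genes lower in KO, *Srpr* included, was 3 of 9 and ran from 3 to 4, beside 49.4% lower over all genes tested. Over all genes, 4 passed an adjusted p of 0.05, 2 passed 0.01, 2 passed with at least 10 in every sample, 1 passed without the trend, and 2 to 32 when libraries were left out, with 32 where KO replicate 1 was missing, 7 where WT replicate 3 was, and 2 where KO replicate 2 or WT replicate 1 was. The cause of these changes was not tested, except that fewer genes were tested with at least 10 in every sample.

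Replicate numbers gave no pairing of hearts, since same-numbered KO and WT hearts had correlations of 0.05, -0.07 and -0.03 between their deviations. With the replicate block *Srpr* stayed at -0.48, 4 genes passed an adjusted p and the count for SRP-independent targeting was 0 in place of 1.

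The counts per list at an unadjusted p under 0.05 rest on few genes. Without the mean-variance trend they were 0 for the Sec61 channel, 0 for oligosaccharyltransferase, 0 for the unfolded protein response, 1 for signal peptide removal and 1 for sarcoplasmic reticulum cargo. With at least 10 in every sample they were 2 for the Sec61 channel, 0 for SRP-independent targeting and 0 for the unfolded protein response. With cyclic loess they were 1 for COPII export, 0 for SRP-independent targeting and 3 for sarcoplasmic reticulum cargo. Leaving out each library gave 0 to 1 for the SRP and its receptor, 0 to 4 for the Sec61 channel, 0 to 1 for SRP-independent targeting, 1 to 5 for the luminal chaperones, 0 to 2 for the unfolded protein response, 0 to 1 for COPII export and 2 to 9 for sarcoplasmic reticulum cargo.

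The genes near *Srpr* were lower in 6 to 7 of 7 cases in all settings, and 1 to 5 were at an unadjusted p under 0.05 when libraries were left out. The stretch median was -0.32 to -0.29 under the other settings, chosen after seeing the data, and -0.50 to -0.23 when libraries were left out. Depth limits the low genes, *Sec61b* above all.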
